A study of Mus musculus with 12 samples.

Results

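The genes described here are 39 cell cycle and proliferation genes, taken by their symbols from the 21983 genes of a count table of mouse brain RNA. They comprise 12 genes of DNA replication and 27 genes of G2 phase, mitosis and cytokinesis, and the rule that takes them is a list of symbols, with no threshold on a value. Brain RNA was sequenced from 6-week-old C57BL/6 wild type mice in 3 groups of 4 libraries. The first group were normal control mice, the second had experimental cerebral malaria, abbreviated ECM, and the third had ECM and received artesunate, an antimalarial drug, for 4 days. The sources used here do not give the parasite or the day of sampling, and artesunate in uninfected mice was not analysed here. Whether the 4 libraries of a group came from separate mice is not in the labels. A p-value here therefore sets a group difference against the spread between these libraries, which may not be the spread between mice.

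A dividing cell first loads the MCM helicase onto replication origins, then copies its DNA in S phase, and then separates the copies in mitosis under the control of Cdk1 and its cyclins. The transcripts of these machines are made in waves: many replication genes are switched on by E2F factors towards S phase, and many mitotic genes, which the DREAM complex holds back in resting cells, later by B-Myb and FoxM1. Neurons of the adult brain do not divide, so proliferation there is known mainly from neural progenitors, oligodendrocyte precursors, glia and vessel cells, and in inflammation also from lymphocytes that have entered the tissue.

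Reads assigned to genes ranged from 13342177 to 18886822 per library. Levels are CPM, read counts per 1000000 reads scaled by TMM, and a value is set against other libraries for the same gene and not against other genes. Summed markers of neurons (5704 to 8904 CPM over the 12 libraries), astrocytes and oligodendrocytes were abundant throughout, as the tissue label says. Control 4, ECM 2 and ECM 3 stood apart, with 10.7%, 15.2% and 13.2% of reads from 13 mitochondrial genes, against 4.74% to 7.89% elsewhere. Summed cerebellar markers ran from 56.9 CPM in ECM 3 to 4285 CPM in ECM 2. Their part in the results was not tested beyond the fits without these 3 libraries and with a cerebellar score, which stand beside the counts. The 39 genes were all in the count table, and 37 passed the filter on low counts. Esco2, which acetylates cohesin in S phase, had 1 to 6 reads per library and was not tested. Kif11, the motor that pushes the spindle poles apart, had 0 reads in each of the 12 libraries, as had 2823 of 19771 genes whose rows were read in place. Its gene overlaps 2 processed pseudogenes in GENCODE M21, and it is given only as listed at 0.

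A group of cell cycle transcripts rose in ECM brains, from the replication helicase to the proteins of cytokinesis, and a few of them were lower in the treated group than in ECM. In ECM against control, 15 of the 37 tested genes rose and 0 fell, while over all 14621 genes tested 7.0% were called higher and 3.28% lower. The 15 were Mki67, Ccnb2, Top2a, Anln, Bub1b, Ube2c, Aurkb, Kif23, Rrm2, Mcm3, Uhrf1, Birc5, Tk1, Cdk1 and Ccna2. The median log2 fold change of the 37 was 1.01, against -0.02 over all genes, and 36 of the 37 values were above 0. A call is an adjusted p below 0.05 (edgeR quasi-likelihood test, Benjamini-Hochberg over all genes tested). At an unadjusted p below 0.05 there were 25 genes, all 25 higher in ECM, against 22.7% of all genes in either direction. DESeq2 called 18 of the genes higher, the 15 with Mcm6, Ccnb1 and Cdc20, and 0 lower. It called 8.33% of all genes it tested higher and 4.0% lower. In 17 of the 37, each ECM library lay above each control library. The share of all genes tested with such a separation was not computed, so this count has no background beside it.

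In treated ECM against ECM, 4 of the 37 genes fell, namely Anln, Ccnb2, Mki67 and Birc5, and 0 rose. Over all genes 5.07% were called lower and 3.32% higher in that comparison. The median of the 37 was -0.62, against 0.01 over all genes, and 35 values were below 0. At an unadjusted p below 0.05 there were 16, all 16 lower, against 25.9% of all genes in either direction. DESeq2 called 6 lower, the 4 with Mcm6 and Ccna2, and 0 higher, where it called 8.55% of all genes lower and 5.0% higher. The 4 genes that edgeR called are 10.8% of the 37. In the authors' deposited table of that comparison, Kif23, Ccna2 and Ccnb1 also had a deposited adjusted p below 0.05. Their log2 fold changes there were -1.23, -1.11 and -1.50, with an adjusted p of 0.012, 0.0176 and 0.0393. It also held Aurkb and Hmmr, with an adjusted p of 0.144 and 0.102. In treated ECM against control, 0 of the 37 were called in either direction by edgeR or by DESeq2, where 1.98% of all genes were called higher and 0.0547% lower. At an unadjusted p below 0.05 there were 6 genes in that comparison, all higher in the treated group, namely Rrm2, Ube2c, Bub1b, Mki67, Top2a and Aurkb. That is 16.2% of the 37, near the 11.4% of all genes at that p in either direction. The share of all genes that were higher at that p was not computed. The median there was 0.31, against 0.00 over all genes, with 27 values above 0. The ECM group serves 2 of the comparisons and the control group 2, so their values are set side by side and not counted as separate evidence.

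How many genes passed changed when single libraries were left out, which also left fewer libraries in the fit. Treated libraries enter ECM against control only through the scaling, the filter and the shared spread. Without treated ECM 1, 2, 3 or 4 its median stayed at 1.01. The genes called higher there were 12, 11, 11 and 12, against 6.5%, 6.32%, 6.44% and 6.45% of all genes. The 15 became 7 without control 3 and 9 without control 2, without ECM 2 or without ECM 4, where 5.46%, 5.89%, 6.9% and 6.35% of all genes were called higher. The 4 that fell became 7 without control 4, 1 without treated ECM 1, and 2 without ECM 3 or without treated ECM 2, 3 or 4. In these fits the share of all genes called lower moved as well, to 8.43% without control 4, 2.53% without treated ECM 1, 3.85% without ECM 3, and 2.47%, 2.61% and 2.86% without treated ECM 2, 3 and 4. With control 4, ECM 2 and ECM 3 left out together, 15 genes were higher in ECM, of which 12 were among the first 15, and 4 were lower in treated ECM than in ECM, against 10.2% of all genes called higher and 8.08% called lower in these comparisons. With the cerebellar marker score as a covariate, a fit added after the data were seen, 21 were higher in ECM and 5 lower in treated ECM than in ECM, against 10.7% and 7.2% of all genes. In the fit without the 3 libraries Mki67 was also called higher in treated ECM than in control (log2 1.49, adjusted p = 0.00576), as it was without control 4 alone (1.5, adjusted p = 0.048). The calls of Mki67, Ccnb2, Top2a, Anln, Bub1b, Ube2c and Aurkb in ECM against control held in each of the 12 omissions of 1 library. That of Aurkb had an adjusted p of up to 0.0486 there and was lost with replicate number as a block. Of the 4 calls in treated ECM against ECM, that of Anln held in each omission.

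**Figure D1:**
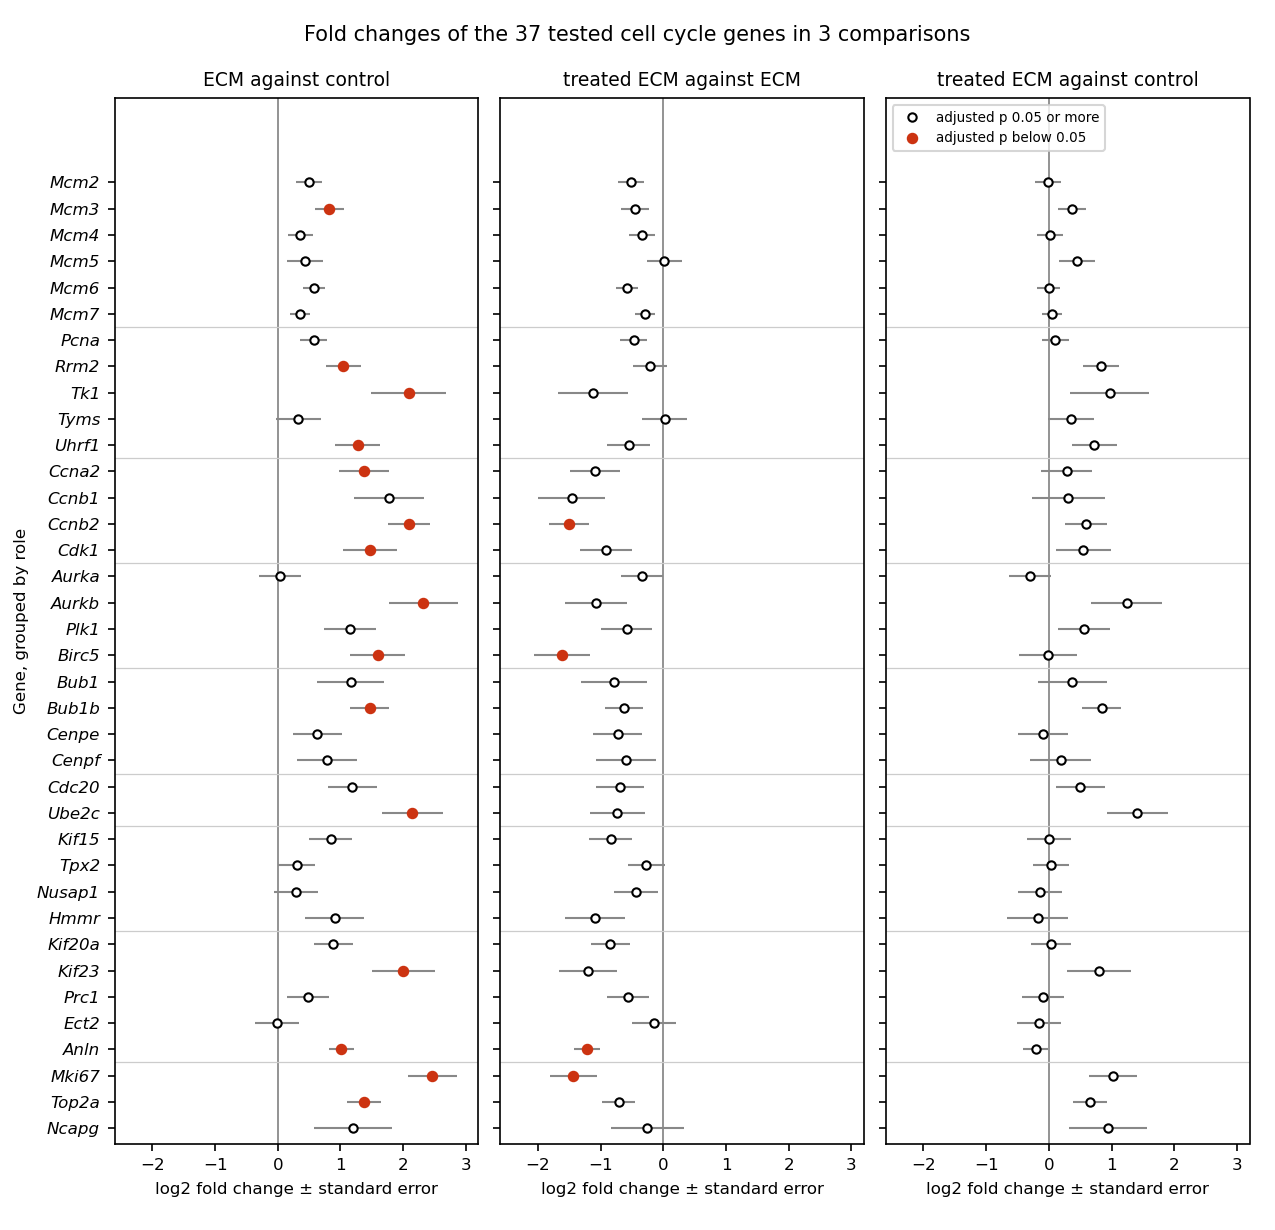
Log2 fold change (x axis, point) with its standard error (bar) of the 37 tested cell cycle genes (y axis, grouped by role) in the 3 comparisons, with filled red points for an adjusted p below 0.05. The ECM against control panel holds 15 red points, all to the right of 0, treated ECM against ECM holds 4, all to the left, and treated ECM against control holds 0.

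**Figure D2:**
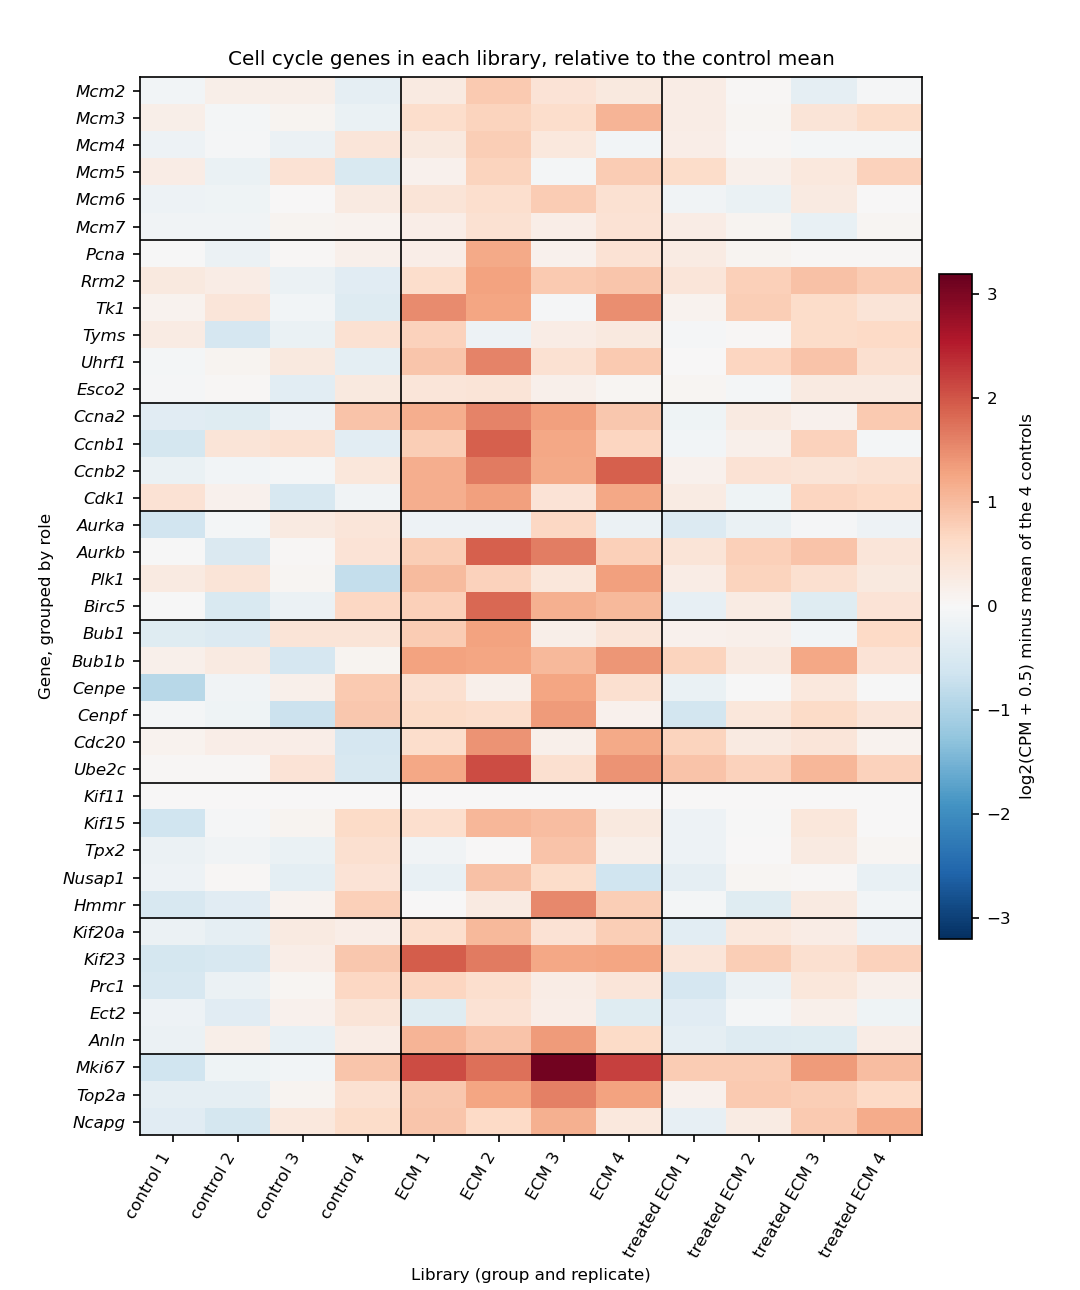
Level of each of the 39 genes (rows, grouped by role) in each of the 12 libraries (columns), as log2(CPM + 0.5) minus the mean of the 4 controls, red for higher and blue for lower. The 4 ECM columns are the reddest, Mki67 most of all, the treated columns are paler, and Kif11 is blank because it was at 0 throughout.

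Since most of these genes had values above 0 in ECM against control, the letters of their promoters were searched in the RefSeq table of build GRCm38.p6, whose windows run from 250 bases before to 50 bases after a start site. It holds 33 of the 39 genes. Searched on both strands were CCAAT, the box bound by the factor NF-Y, TTTGAA, the cell cycle homology region (CHR) read by the DREAM and MuvB complexes, and 4 cores of the E2F site. The first core was TTCCCGC, another form was TTCGCGC, a further form was TTGCCGC, and the last core was TTGGCGC. The core TTGGCGC can overlap CCAAT on the other strand. The CHR was in 18 of 23 G2 and mitosis genes (78.3%) and in 1 of 10 replication genes (10%), Mcm2, against 20.2% of 27025 genes in the table. CCAAT was in 82.6% and 80%, against 41.1%. An E2F core was in 30.4% and 60%, against 10.9%. CHR and CCAAT together were in 16 of the 23 mitotic genes (69.6%) and in 7.97% of all genes. Among the genes called higher in ECM with a window, 8 of 13 held a CHR, and among those tested and not called, 10 of 19. These are matches of letters, not sites shown to be bound.

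Shown here are the promoter windows of the 5 genes with the largest log2 fold changes in ECM that hold a match, 5′ to 3′ along the gene, with matched letters in capitals. They show how the elements lie next to each other. Mki67 has 3 CCAAT boxes, 2 CHR and 1 E2F core, Ube2c 6 CCAAT boxes and 1 CHR on the other strand, Ccnb2 3 CCAAT boxes and 2 CHR, Kif23 1 of each, and Ccnb1 2 CCAAT boxes, the first overlapping an E2F core, and no TTTGAA in this window.
Mki67 (chr7:135716330-135716629, minus strand): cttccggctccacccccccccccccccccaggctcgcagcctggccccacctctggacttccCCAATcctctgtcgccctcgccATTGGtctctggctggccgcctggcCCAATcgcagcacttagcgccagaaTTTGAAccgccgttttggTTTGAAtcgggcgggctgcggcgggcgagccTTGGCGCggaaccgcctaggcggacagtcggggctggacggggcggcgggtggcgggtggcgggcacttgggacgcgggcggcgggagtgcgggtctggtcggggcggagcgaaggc
Ube2c (chr2:164769679-164769978, plus strand): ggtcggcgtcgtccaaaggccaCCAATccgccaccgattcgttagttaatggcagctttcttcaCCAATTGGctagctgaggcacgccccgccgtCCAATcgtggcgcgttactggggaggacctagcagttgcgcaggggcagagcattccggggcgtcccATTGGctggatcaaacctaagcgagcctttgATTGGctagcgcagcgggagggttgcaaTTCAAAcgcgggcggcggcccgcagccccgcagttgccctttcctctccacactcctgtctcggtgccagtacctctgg
Ccnb2 (chr9:70421505-70421804, minus strand): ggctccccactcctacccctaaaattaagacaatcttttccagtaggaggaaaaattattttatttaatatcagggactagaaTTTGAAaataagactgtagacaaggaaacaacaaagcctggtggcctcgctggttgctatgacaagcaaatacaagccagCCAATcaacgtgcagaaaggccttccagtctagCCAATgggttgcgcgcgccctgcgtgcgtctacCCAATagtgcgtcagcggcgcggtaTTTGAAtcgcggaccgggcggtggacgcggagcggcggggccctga
Kif23 (chr9:61946750-61947049, minus strand): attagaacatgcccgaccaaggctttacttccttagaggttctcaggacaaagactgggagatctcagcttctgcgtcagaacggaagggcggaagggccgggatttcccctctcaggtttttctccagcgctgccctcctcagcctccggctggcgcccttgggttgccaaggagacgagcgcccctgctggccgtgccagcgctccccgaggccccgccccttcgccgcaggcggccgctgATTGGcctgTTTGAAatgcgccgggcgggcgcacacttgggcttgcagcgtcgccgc
Ccnb1 (chr13:100786437-100786736, minus strand): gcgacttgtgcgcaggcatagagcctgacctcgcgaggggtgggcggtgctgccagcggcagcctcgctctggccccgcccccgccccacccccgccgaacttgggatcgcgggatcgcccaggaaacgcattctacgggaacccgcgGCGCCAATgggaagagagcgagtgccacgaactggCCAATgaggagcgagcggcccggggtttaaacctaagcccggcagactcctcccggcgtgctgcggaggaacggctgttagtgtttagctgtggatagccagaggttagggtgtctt

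In the replication genes that rose, a stretch around the E2F core is shown for the 3 that hold one. In Mcm3 the capitals are 2 of its 3 cores, which overlap on opposite strands, after the start site.
Mcm3 (chr1:20820263-20820287, minus strand): aaacttgggaagttTTGGCGCCAAg
Rrm2 (chr12:24708004-24708042, plus strand): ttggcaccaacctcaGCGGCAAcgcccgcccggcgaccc
Uhrf1 (chr17:56303272-56303312, plus strand): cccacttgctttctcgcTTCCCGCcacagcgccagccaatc

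**Figure D3:**
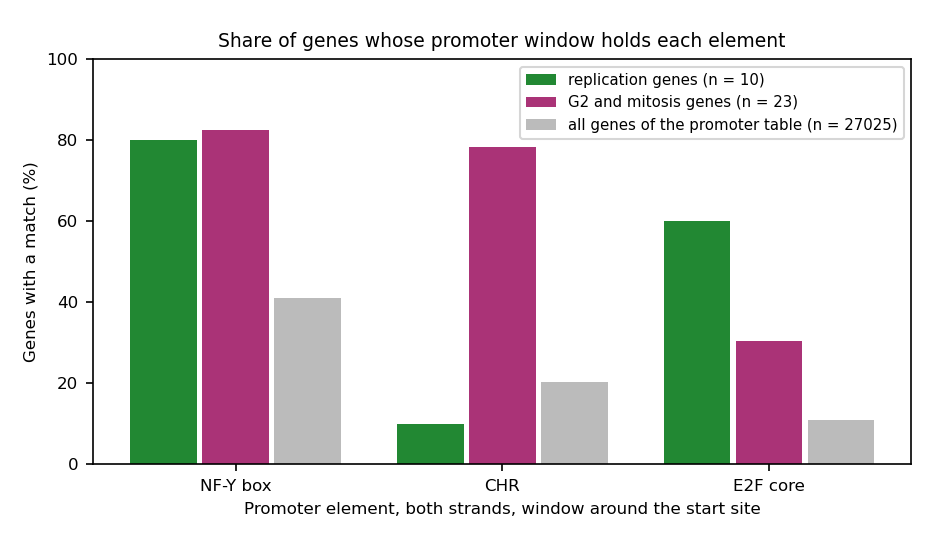
Share of genes (y axis, percent) whose promoter window holds an NF-Y box, a CHR or an E2F core (x axis), for 10 replication genes, 23 G2 and mitosis genes and all 27025 genes of the promoter table. The CHR bar is tall for the G2 and mitosis genes alone (78.3%, against 10% and 20.2%), and the E2F bar is tallest for the replication genes (60%).

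The helicase that opens DNA at replication origins is built of 6 subunits encoded by Mcm2 to Mcm7. Of these, Mcm3 (chromosome 1, 20802968 to 20820312, build mm10) rose in ECM, and the other 5 did not pass the test. Mcm3 stood at 3.73, 3.0, 3.43 and 2.66 CPM in controls 1 to 4, 4.96, 5.5, 4.92 and 7.32 CPM in ECM 1 to 4 and 3.86, 3.34, 4.38 and 5.01 CPM in treated ECM 1 to 4. Each ECM library lay above each control, and the treated libraries overlapped both groups. The means were 3.21 ± 0.469 CPM in control, 5.67 ± 1.13 CPM in ECM and 4.15 ± 0.711 CPM in treated ECM (mean ± SD, n = 4). In ECM against control the log2 fold change was 0.82 ± 0.23, adjusted p = 0.0333, and in treated ECM against ECM -0.46 ± 0.22, adjusted p = 0.216. Its call was lost on omission of control 2, 3 or 4, ECM 4, or treated ECM 3 (with an adjusted p of up to 0.094).

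Mcm6 came next, at 10.8 ± 1.67 CPM in control, 16.2 ± 2.01 CPM in ECM and 10.8 ± 1.8 CPM in treated ECM (mean ± SD, n = 4). Its libraries did not overlap between ECM and either other group, but the adjusted p was 0.0604 in ECM against control (log2 0.58 ± 0.18) and 0.0635 in treated ECM against ECM (log2 -0.58 ± 0.18). DESeq2 called Mcm6 in both comparisons (adjusted p = 0.0209 and 0.019), as did edgeR without control 4 (adjusted p = 0.0262 and 0.0347). Mcm2 and Mcm7 also had each ECM library above each control, with log2 fold changes of 0.50 ± 0.21 and 0.35 ± 0.16 and adjusted p of 0.168 and 0.209. Mcm4 and Mcm5 overlapped between the groups, at 0.36 ± 0.20 and 0.43 ± 0.28. Mcm5 had nearly the same mean in ECM and treated ECM, 8.27 ± 2.57 and 8.38 ± 1.53 CPM, and the other 5 had lower means in the treated group. The median of the 6 subunits was 0.47 in ECM against control, -0.40 in treated ECM against ECM and 0.04 in treated ECM against control. Mcm7 shares its position with Cops6 and Ap4m1 on the other strand, and the kit is not described as strand-specific, so reads of these genes cannot be told apart.

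Behind the helicase, Rrm2 makes deoxynucleotides as the small subunit of ribonucleotide reductase, Tk1 salvages thymidine, and Uhrf1 recognises hemimethylated DNA and brings in the maintenance methyltransferase. All 3 rose in ECM. Rrm2 stood at 2.4, 2.25, 1.53 and 1.3 CPM in controls 1 to 4, 2.93, 5.19, 3.65 and 3.79 CPM in ECM 1 to 4 and 2.54, 3.41, 3.93 and 3.55 CPM in treated ECM 1 to 4. Each ECM and each treated library lay above each control, while ECM and treated ECM overlapped. The log2 fold change was 1.04 ± 0.28, adjusted p = 0.0295 in ECM against control, -0.21 ± 0.27, adjusted p = 0.648 in treated ECM against ECM and 0.83 ± 0.28, adjusted p = 0.256 in treated ECM against control. The call in ECM was lost on omission of control 3 or 4, or ECM 2 or 4 (with an adjusted p of up to 0.0945).

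For Uhrf1 the controls held 1.07, 1.25, 1.53 and 0.82 CPM, the ECM libraries 2.56, 4.49, 1.83 and 2.46 CPM and the treated libraries 1.16, 2.14, 2.6 and 1.84 CPM, each in the order of the replicate numbers. The ECM libraries were all above the controls, and ECM 2 was the highest. Uhrf1 changed by log2 1.27 ± 0.36, adjusted p = 0.0369 in ECM against control and had -0.55 ± 0.34, adjusted p = 0.33 in treated ECM against ECM. The call was lost on omission of control 1, 2, 3 or 4, ECM 1, 2 or 4, or treated ECM 2 or 4 (with an adjusted p of up to 0.0955). Libraries 1 to 4 had 0.32, 0.501, 0.219 and 0.0683 CPM of Tk1 in control, 1.65, 1.32, 0.238 and 1.64 CPM in ECM and 0.317, 0.802, 0.634 and 0.507 CPM in treated ECM. Here ECM 3 lay among the controls while the other ECM libraries lay above them, and reads were few (1 to 32 per library). The log2 fold change of Tk1 was 2.09 ± 0.60, adjusted p = 0.0419. This call was lost on omission of control 1, 3 or 4, ECM 1, 2 or 4, or treated ECM 1, 2, 3 or 4 (with an adjusted p of up to 0.113). Tk1 also overlaps Afmid on the other strand.

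Pcna, the sliding clamp that holds polymerases on DNA, had 30.6, 26.9, 31.3 and 34.1 CPM in controls 1 to 4, 35.4, 71.6, 34 and 42.3 CPM in ECM 1 to 4 and 36.8, 32.6, 31.2 and 31.3 CPM in treated ECM 1 to 4. ECM 2 alone stood far above the rest, ECM 3 lay among the controls, and Pcna did not pass the test (log2 fold change 0.58 ± 0.21, adjusted p = 0.118). Tyms, the thymidylate synthase gene, had overlapping libraries in all groups, at 1.68 ± 0.686 CPM in control, 2.12 ± 0.668 CPM in ECM and 2.16 ± 0.653 CPM in treated ECM (mean ± SD, n = 4) (log2 fold change 0.33 ± 0.36, adjusted p = 0.662). Esco2 had 0.0731 to 0.41 CPM in control, 0.256 to 0.464 CPM in ECM and 0.201 to 0.381 CPM in treated ECM, from too few reads for a test. Over the 11 tested replication genes, 4 rose in ECM (36.4%, against 7.0% of all genes) with a median of 0.58. The median of treated ECM against ECM was -0.46 with 0 called, where 5.07% of all genes were called lower and 3.32% higher.

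Cyclins A and B switch on Cdk1, the kinase that drives entry into mitosis. Of the 4 genes for these partners, Ccnb2, Ccna2 and Cdk1 rose in ECM, and Ccnb2 fell in treated ECM against ECM. Ccnb2 stood at 0.48, 0.563, 0.584 and 0.957 CPM in controls 1 to 4, 2.03, 3.1, 2.14 and 3.74 CPM in ECM 1 to 4 and 0.74, 1.07, 1.01 and 1.08 CPM in treated ECM 1 to 4. The ECM libraries were separate from both other groups, at 4.27 times the control level in the fit. Ccnb2 (chromosome 9, 70407692 to 70421547) had a log2 fold change of 2.09 ± 0.33, adjusted p = 0.000863 in ECM against control. In treated ECM against ECM it was -1.50 ± 0.32, adjusted p = 0.0121, a call lost without treated ECM 1 (adjusted p = 0.0505). In treated ECM against control it was 0.59 ± 0.34, adjusted p = 0.493.

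For Ccna2 the controls held 1.01, 1.0, 1.24 and 3.14 CPM, the ECM libraries 3.84, 5.34, 4.37 and 3.02 CPM and the treated libraries 1.27, 1.87, 1.65 and 2.98 CPM, each in the order of the replicate numbers. Control 4 stood apart from the other 3 controls and lay above ECM 4, the lowest ECM library. Ccna2, the cyclin of S and G2 phase, rose by log2 1.37 ± 0.40, adjusted p = 0.0464, and in treated ECM against ECM it had -1.09 ± 0.40, adjusted p = 0.105. The rise was lost on omission of control 1, 2 or 3, ECM 1, 2 or 3, or treated ECM 1, 2 or 3 (with an adjusted p of up to 0.131). Ccna2 overlaps Exosc9 on the other strand. Libraries 1 to 4 had 1.07, 0.751, 0.292 and 0.547 CPM of Cdk1 in control, 2.03, 2.32, 1.03 and 2.15 CPM in ECM and 0.846, 0.535, 1.33 and 1.27 CPM in treated ECM. Control 1 lay above ECM 3 for Cdk1, and the remaining ECM libraries lay above all controls. Its log2 fold change was 1.47 ± 0.43, adjusted p = 0.0441, lost on omission of control 2, 3 or 4, ECM 1, 2 or 4, or treated ECM 1, 3 or 4 (with an adjusted p of up to 0.122), and -0.92 ± 0.41, adjusted p = 0.18 in treated ECM against ECM.

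Ccnb1, the other mitotic cyclin gene, had 0.16, 0.814, 0.877 and 0.273 CPM in controls 1 to 4, 1.2, 3.17, 1.83 and 1.07 CPM in ECM 1 to 4 and 0.423, 0.602, 1.14 and 0.444 CPM in treated ECM 1 to 4. Each ECM library lay above each control, yet with 3 to 41 reads per library the test gave log2 fold change 1.78 ± 0.56, adjusted p = 0.0612. In the authors' deposited table of that comparison its log2 fold change was 1.81 with an adjusted p of 0.0448. Of the genes that did not pass here, that table also held Cdc20 and Plk1, with an adjusted p of 0.106 and 0.168. The 4 genes had a median of 1.62 in ECM against control, -1.28 in treated ECM against ECM and 0.43 in treated ECM against control.

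Aurora B and survivin, the products of Aurkb and Birc5, belong to the chromosomal passenger complex, which corrects faulty attachments of chromosomes and later directs cytokinesis. Both rose in ECM, and Birc5 fell in treated ECM against ECM. Aurkb stood at 0.267, 0.0626, 0.292 and 0.547 CPM in controls 1 to 4, 0.827, 2.4, 1.9 and 0.819 CPM in ECM 1 to 4 and 0.529, 0.802, 0.951 and 0.507 CPM in treated ECM 1 to 4. All ECM libraries lay above the controls, with ECM 2 and ECM 3 highest, and the treated group overlapped both others. Aurkb changed by log2 2.32 ± 0.55, adjusted p = 0.0147 in ECM against control, from 1 to 31 reads per library, a call lost with replicate number as a block. It had -1.07 ± 0.49, adjusted p = 0.189 in treated ECM against ECM and 1.25 ± 0.57, adjusted p = 0.428 in treated ECM against control. For Birc5 the controls held 0.80, 0.438, 0.657 and 1.57 CPM, the ECM libraries 1.73, 4.18, 2.38 and 2.2 CPM and the treated libraries 0.582, 1.07, 0.507 and 1.27 CPM, each in the order of the replicate numbers. For Birc5 the ECM libraries were above all others, and control and treated ECM overlapped. It rose by log2 1.59 ± 0.45, adjusted p = 0.0371 in ECM against control, and in treated ECM against ECM it fell by 1.61 ± 0.44 on the log2 scale (adjusted p = 0.0409), to -0.02 ± 0.46 against control. Its rise was lost on omission of control 1, 2 or 3, ECM 2 or 4, or treated ECM 2 (with an adjusted p of up to 0.11), and its fall on omission of control 1 or 3, ECM 2 or 3, or treated ECM 1, 2, 3 or 4 (with an adjusted p of up to 0.123).

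Plk1, a kinase of mitotic entry and spindle assembly, had means of 0.88 ± 0.433 CPM in control, 1.96 ± 0.672 CPM in ECM and 1.32 ± 0.277 CPM in treated ECM (mean ± SD, n = 4) and did not pass the test (log2 fold change 1.15 ± 0.41, adjusted p = 0.104). Aurka, whose kinase matures the spindle poles, had near-equal means in control and ECM, at 2.33 ± 0.81 CPM in control, 2.4 ± 0.941 CPM in ECM and 1.88 ± 0.26 CPM in treated ECM (mean ± SD, n = 4). Its log2 fold change in ECM against control was 0.04 ± 0.33, adjusted p = 0.962, and ECM 3, at 3.81 CPM, stood apart from the other 3 ECM libraries.

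Until every chromosome is attached, the spindle checkpoint holds the cell in metaphase. Of 4 genes of the checkpoint and kinetochore, Bub1b, which encodes the checkpoint protein BubR1, rose in ECM. Bub1b stood at 1.76, 1.94, 0.877 and 1.64 CPM in controls 1 to 4, 4.44, 4.33, 3.65 and 4.86 CPM in ECM 1 to 4 and 2.8, 1.94, 4.25 and 2.22 CPM in treated ECM 1 to 4. The ECM libraries lay close together and above all controls, while treated ECM 3 reached into the ECM range. The log2 fold change of Bub1b was 1.47 ± 0.31, adjusted p = 0.00762 in ECM against control, -0.62 ± 0.30, adjusted p = 0.208 in treated ECM against ECM and 0.84 ± 0.31, adjusted p = 0.323 in treated ECM against control. The checkpoint kinase gene Bub1 had 1.16 ± 0.54 in ECM against control (adjusted p = 0.22). The kinetochore genes Cenpe and Cenpf had 0.63 ± 0.40 and 0.78 ± 0.48 (adjusted p = 0.392 and 0.375), and in both, control 4 lay above several ECM libraries. The 4 genes had medians of 0.97 and -0.68 in the first and second comparison.

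The anaphase promoting complex then marks cyclin B and securin for destruction, with Ube2c as its ubiquitin-conjugating enzyme and Cdc20 as its activator. Ube2c rose in ECM. Ube2c stood at 0.426, 0.438, 0.731 and 0.137 CPM in controls 1 to 4, 1.65, 3.33, 0.794 and 1.94 CPM in ECM 1 to 4 and 1.22, 1.0, 1.4 and 1.01 CPM in treated ECM 1 to 4. Each ECM and each treated library was above each control, while ECM 3 was below all 4 treated libraries. Ube2c had a log2 fold change of 2.15 ± 0.48, adjusted p = 0.0111 in ECM against control, -0.73 ± 0.44, adjusted p = 0.305 in treated ECM against ECM and 1.41 ± 0.49, adjusted p = 0.276 in treated ECM against control. Ube2c had 2 to 43 reads per library and overlaps Tnnc2 on the other strand. For Cdc20 the values were 1.04 ± 0.334 CPM in control, 2.38 ± 1.1 CPM in ECM and 1.47 ± 0.348 CPM in treated ECM (mean ± SD, n = 4) (log2 fold change 1.19 ± 0.39, adjusted p = 0.0743), with ECM 3 within the control range.

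Motors and microtubule proteins of the spindle had 4 tested genes, and 0 were called in any comparison (edgeR). At an unadjusted p below 0.05 Kif15 was higher in ECM than in control, and Kif15 and Hmmr were lower in treated ECM than in ECM. Kif15, a motor that helps keep the spindle bipolar, had 1.81 ± 0.811 CPM in control, 3.24 ± 0.899 CPM in ECM and 1.8 ± 0.376 CPM in treated ECM (mean ± SD, n = 4) (log2 fold change 0.84 ± 0.35, adjusted p = 0.162). Hmmr, a microtubule-binding protein of the spindle, had log2 fold change 0.91 ± 0.48, adjusted p = 0.291, with 4.21 CPM in ECM 3 against 2.3 CPM at most in the other ECM libraries. Tpx2, which seeds microtubules around chromosomes, and Nusap1, which bundles them, had 0.30 ± 0.29 and 0.29 ± 0.35 (adjusted p = 0.612 and 0.692). DESeq2 called 0 of these 4 in each comparison, and Kif15 passed in ECM against control without control 4 (log2 1.17, adjusted p = 0.0461).

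At the end of mitosis the central spindle and the actomyosin ring divide the cell. Kif23, a motor of the centralspindlin complex, and Anln, the scaffold anillin that links the ring to the membrane, rose in ECM, and Anln fell in treated ECM against ECM. Kif23 stood at 0.213, 0.25, 0.731 and 1.43 CPM in controls 1 to 4, 3.54, 2.86, 1.98 and 2.05 CPM in ECM 1 to 4 and 0.899, 1.34, 1.01 and 1.27 CPM in treated ECM 1 to 4. Each ECM library was above each other library. Kif23 had a log2 fold change of 2.0 ± 0.50, adjusted p = 0.0194 in ECM against control, lost on omission of control 1, 2 or 3, or ECM 1 (with an adjusted p of up to 0.0593), and -1.20 ± 0.47, adjusted p = 0.127 in treated ECM against ECM. For Anln the controls held 56.7, 73.2, 54.1 and 75.5 CPM, the ECM libraries 137, 122, 166 and 98.7 CPM and the treated libraries 52.3, 47.7, 49 and 75.7 CPM, each in the order of the replicate numbers. The lowest ECM library lay above the highest of both other groups, which overlapped each other.

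Anln (chromosome 9, 22332012 to 22389188) rose by log2 1.01 ± 0.20, adjusted p = 0.00509 in ECM and in treated ECM against ECM fell by 1.22 ± 0.20 on the log2 scale (adjusted p = 0.00376). Both calls held in each omission of 1 library and in each other setting tried. Between treated ECM and control its log2 fold change was -0.21 ± 0.20, adjusted p = 0.645. Anln supplied 45.9% to 68.7% of the reads of the 27 G2 and mitosis genes in each library, controls included. It is also known in myelinating oligodendrocytes, which keep it without dividing. Summed markers of oligodendrocytes overlapped between the groups (6082 to 11646 CPM in control, 6478 to 7927 CPM in ECM and 7803 to 11178 CPM in treated ECM). Among the 6 tested, 1 was called higher in ECM than in control, and 0 were called in treated ECM against ECM. Whether Anln moved in dividing or in other cells was not tested.

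Kif20a, which carries the passenger complex to the central spindle, had each ECM library above each control and each treated library, but did not pass the test (log2 fold change 0.88 ± 0.31, adjusted p = 0.096). Prc1, which bundles the microtubules between the chromosomes, had log2 fold change 0.48 ± 0.33, adjusted p = 0.446. Ect2, which activates the GTPase RhoA at the cell equator, had 1.47 ± 0.46 CPM in control, 1.47 ± 0.592 CPM in ECM and 1.31 ± 0.265 CPM in treated ECM (mean ± SD, n = 4), and -0.01 ± 0.35, adjusted p = 0.989 on the log2 scale in ECM against control. It was the only one of the 37 with a value below 0 in that comparison, and with DESeq2 size factors all 37 values were above 0. Kif20a and Prc1 overlap other genes on the opposite strand.

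Of 3 genes of chromosome structure, Mki67 and Top2a rose in ECM and Mki67 fell in treated ECM against ECM. Mki67 encodes the Ki-67 antigen, which coats mitotic chromosomes and is the usual marker of proliferating cells, and Top2a encodes topoisomerase II alpha, which untangles sister DNA. Mki67 stood at 1.39, 2.19, 2.26 and 4.92 CPM in controls 1 to 4, 12.1, 9.6, 24.5 and 12.9 CPM in ECM 1 to 4 and 4.65, 4.68, 7.1 and 5.39 CPM in treated ECM 1 to 4. Every ECM library exceeded every other library, ECM 3 by far the most, and control 4 reached the range of the treated group. The means were 2.69 ± 1.54 CPM in control, 14.8 ± 6.64 CPM in ECM and 5.46 ± 1.15 CPM in treated ECM (mean ± SD, n = 4). Mki67 (chromosome 7, 135689784 to 135716361) was 5.51 times as high in ECM as in control (log2 fold change 2.46 ± 0.39, adjusted p = 0.000892), the largest fold change of the 37 genes. In treated ECM against ECM the log2 fold change was -1.44 ± 0.37, adjusted p = 0.0329. That call was lost on omission of ECM 3, or treated ECM 1, 2, 3 or 4 (with an adjusted p of up to 0.1). Between treated ECM and control it was 1.03 ± 0.38, adjusted p = 0.334.

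For Top2a the controls held 2.61, 2.63, 3.51 and 4.78 CPM, the ECM libraries 6.39, 8.67, 11.1 and 8.75 CPM and the treated libraries 3.65, 6.22, 6.09 and 5.39 CPM, each in the order of the replicate numbers. The ECM libraries were all above the rest, treated ECM 1 lay within the control range and treated ECM 2, 3 and 4 above it. Top2a rose by log2 1.37 ± 0.27, adjusted p = 0.00459 in ECM, had -0.71 ± 0.26, adjusted p = 0.11 in treated ECM against ECM, and 0.66 ± 0.27, adjusted p = 0.385 in treated ECM against control. Ncapg, a subunit of condensin I, had 0.471 ± 0.363 CPM in control, 1.08 ± 0.362 CPM in ECM and 0.898 ± 0.583 CPM in treated ECM (mean ± SD, n = 4) from 2 to 25 reads per library (log2 fold change 1.20 ± 0.62, adjusted p = 0.283). It overlaps Lcorl on the other strand.

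**Figure D4:**
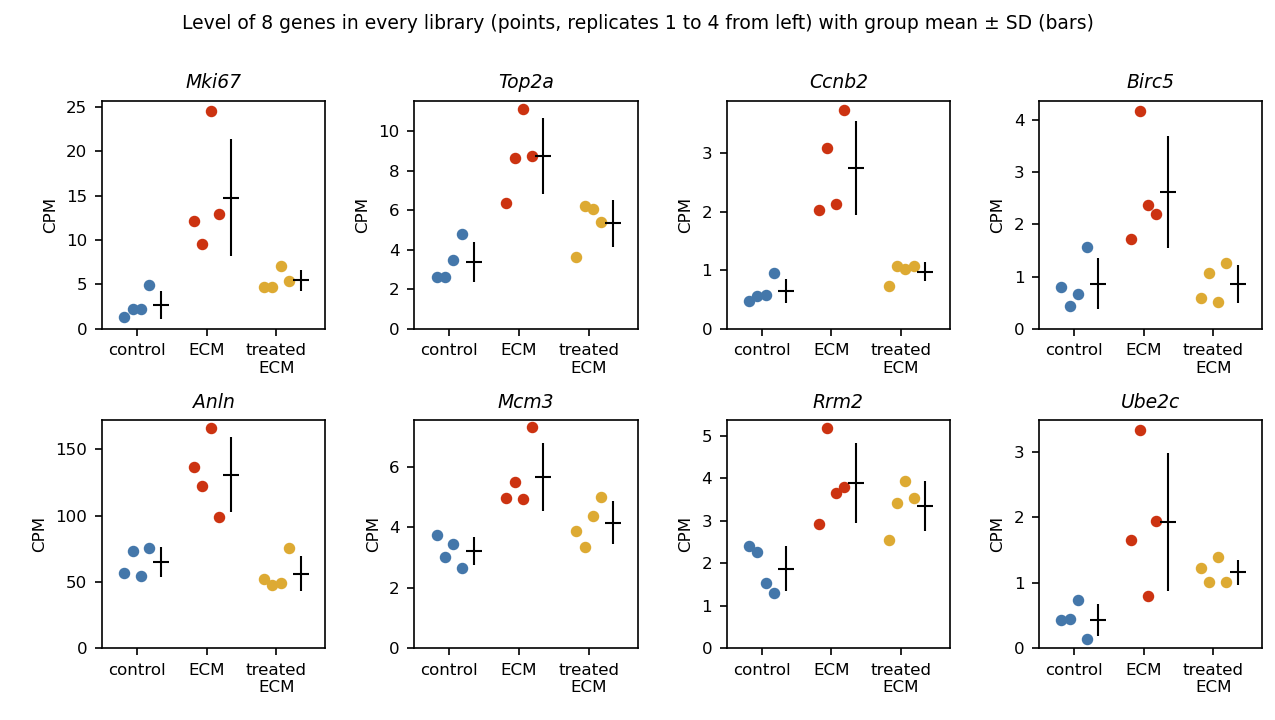
CPM (y axis, from 0) of 8 cell cycle genes in each library (points, replicates 1 to 4 from left to right) in control, ECM and treated ECM (x axis), with the group mean and SD as bars. For Mki67, Top2a, Ccnb2, Birc5 and Anln the 4 ECM points lie above all others, while for Rrm2, Mcm3 and Ube2c they overlap with the treated points.

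Summed over the 12 replication genes, the controls held 90.1, 85.9, 95 and 99.9 CPM, the ECM libraries 116, 175, 117 and 128 CPM and the treated libraries 108, 97.8, 98.8 and 103 CPM, in order of replicate. The 26 G2 and mitosis genes without Anln summed to 28.6, 33.4, 37 and 57.1 CPM in controls 1 to 4, 71.9, 90.9, 103 and 76 CPM in ECM 1 to 4 and 38.1, 47.1, 57.7 and 49 CPM in treated ECM 1 to 4. ECM lay above the other groups in both sums without overlap, and control 4 stood above the other controls in the second. The highest ECM library was ECM 2 for replication and ECM 3 for mitosis. By medians, the G2 and mitosis genes had larger values than the replication genes: 1.18 against 0.58 in ECM against control and -0.76 against -0.46 in treated ECM against ECM, a difference that was not tested.

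Markers of other cell types differed between the same groups. Summed markers of T and NK cells were 1.24 to 2.44 CPM in control, with 8 to 10 of the 14 at 0 in each control library, 107 to 222 CPM in ECM and 24.9 to 57.5 CPM in treated ECM. All 13 tested were higher in ECM than in control, and 10 of them were lower in treated ECM than in ECM. ECM 2 had the most of these markers and ECM 1 the least. Monocyte and macrophage markers summed to 82.7 to 140, 262 to 452 and 135 to 205 CPM in the 3 groups (8 of 10 higher in ECM, 8 of 10 lower in treated ECM than in ECM), and endothelial markers to 177 to 213, 318 to 358 and 198 to 244 CPM (3 of 8 higher and 1 lower in ECM, 2 of 8 lower in treated ECM than in ECM).

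Endothelial sums in ECM thus lay above those of both other groups without overlap, as did the T and NK cell sums and the monocyte and macrophage sums. The summed markers of the other resident cells that can divide overlapped between ECM and control. Astrocyte markers summed to 4067 to 5639 CPM in control, 4236 to 5501 CPM in ECM and 3416 to 4157 CPM in treated ECM. Among the 6 tested, 2 were called higher in ECM than in control, and 1 was called lower in treated ECM than in ECM. Microglia markers overlapped between the groups, at 327 to 355, 261 to 382 and 283 to 393 CPM, although single markers differed: of 8 tested, Aif1 was called higher in ECM than in control and P2ry12 and Sall1 lower. Oligodendrocyte precursor markers overlapped between ECM and control and were just separate between ECM and treated ECM (231 to 419, 217 to 321 and 323 to 421 CPM). Of the 6 tested, Gpr17 was called lower in ECM than in control and higher in treated ECM than in ECM. Those of neural progenitors and young neurons overlapped in all 3 groups (154 to 403, 154 to 212 and 201 to 261 CPM). B and plasma cell markers were at most 1.73 CPM in a library. Neutrophil markers were at most 0.365 CPM in control, 1.88 to 6.11 CPM in ECM and 2.27 to 3.68 CPM in treated ECM. Erythroid markers were at most 0.851 CPM in ECM against 11.1 to 46.4 CPM in control and 14 to 83.7 CPM in treated ECM. Of 4 tested, 3 were called lower in ECM than in control and 3 higher in treated ECM than in ECM. The part of these cell types in the cell cycle values was not tested. In RNA from whole tissue, more cells of a type and more RNA per cell cannot be told apart.

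**Figure D5:**
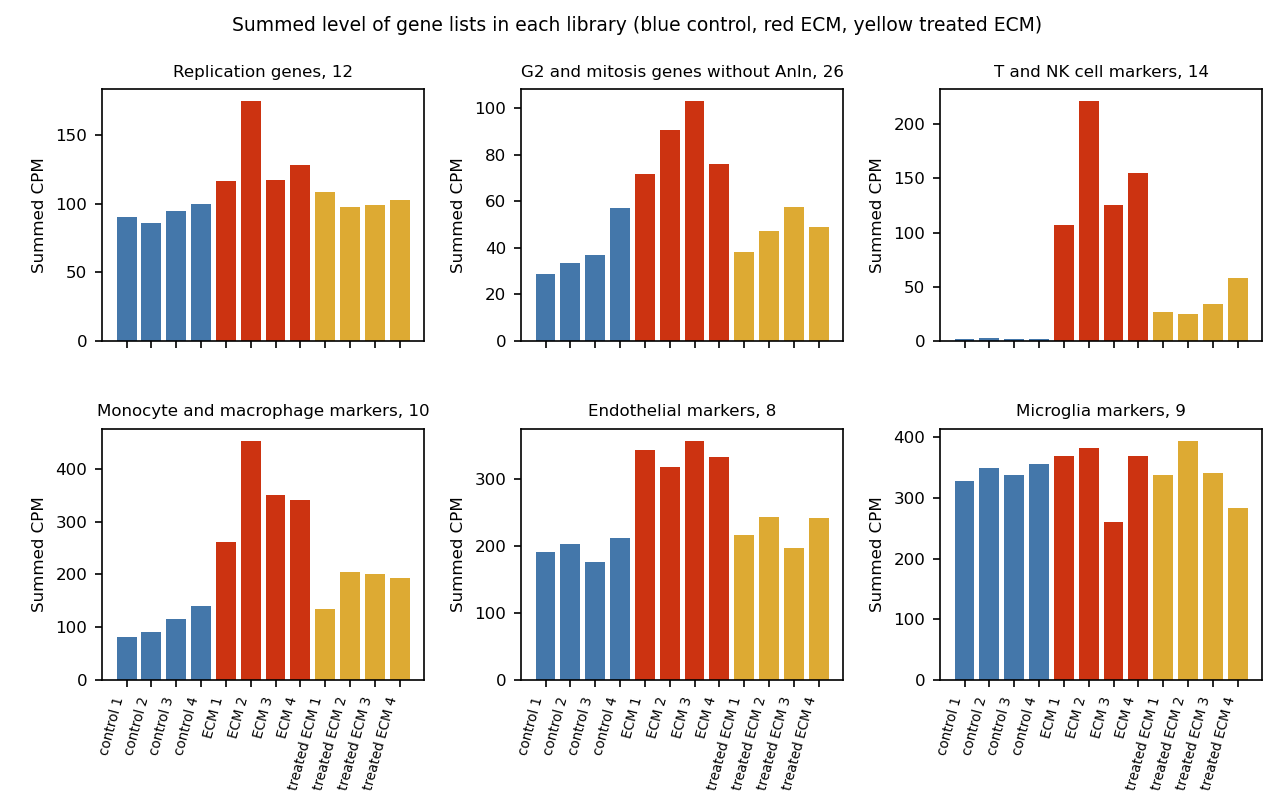
Summed CPM (y axis, from 0) of 6 gene lists in each of the 12 libraries (bars, blue control, red ECM, yellow treated ECM): replication genes, G2 and mitosis genes without Anln, and markers of T and NK cells, monocytes and macrophages, endothelium and microglia. Both cell cycle sums are highest in the 4 ECM bars, as are the first 3 marker lists, while the microglia bars overlap between groups.

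The regulators that sit above these genes were examined from wider lists. Of 26 tested genes for G1 cyclins, kinases, E2F factors and pocket proteins, 3 rose and 2 fell in ECM, and 2 rose and 1 fell in treated ECM against ECM (medians 0.01 and -0.12). The 3 are 11.5% of the list, against 7.0% of all genes called higher. Myc, a growth-promoting transcription factor, rose from 3.22 ± 0.194 to 8.94 ± 1.59 CPM in ECM (1.47 ± 0.24, adjusted p = 0.00122) and was at 4.18 ± 1.19 CPM in treated ECM (-1.10 ± 0.24, adjusted p = 0.0142). Its relative Mycn, known from neural progenitors, went the other way, with 6.54 ± 1.23, 1.9 ± 0.701 and 9.5 ± 2.15 CPM (-1.77 ± 0.29, adjusted p = 0.00131, then 2.31 ± 0.30, adjusted p = 0.000853). E2f6, a repressor of the E2F family, fell (-0.76 ± 0.16, adjusted p = 0.00582) and was higher again in treated ECM than in ECM (0.75 ± 0.16, adjusted p = 0.0114). The activator E2f2 rose in ECM (1.94 ± 0.44, adjusted p = 0.0119), as did Foxm1, the factor of mitotic genes (1.00 ± 0.29, adjusted p = 0.0442), and neither passed in treated ECM against ECM.

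Among 18 tested cell cycle inhibitors and p53 targets, 4 rose and 1 fell in ECM (median 0.19). The 4 are 22.2% of the list, against 7.0% of all genes called higher. Cdkn1a, which encodes the inhibitor p21 and halts the cycle, rose from 15.5 ± 2.39 to 120 ± 32.2 CPM (2.95 ± 0.22, adjusted p = 1.42e-06). In treated ECM it was at 27.9 ± 4.06 CPM (-2.11 ± 0.21, adjusted p = 0.000211 against ECM). The stress response genes Gadd45b and Gadd45g rose in ECM (1.41 ± 0.35, adjusted p = 0.0212, and 1.51 ± 0.38, adjusted p = 0.0221). Zmat3, a p53 target, fell (-0.57 ± 0.12, adjusted p = 0.00621) and was higher in treated ECM than in ECM (0.50 ± 0.12, adjusted p = 0.0217). Btg2, an antiproliferative gene, rose in ECM (1.13 ± 0.33, adjusted p = 0.0454) and was also higher in treated ECM than in control (1.46 ± 0.33, adjusted p = 0.0374). It was the only gene of the 4 wider lists called in that last comparison. The group mean of Cdkn1a and those of the 15 called cell cycle genes were all highest in ECM. Their choice as genes called higher fixes the order between ECM and control, so this is not a separate result.

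Beyond the 12 replication genes, 49 others of DNA replication were tested: 3 rose and 2 fell in ECM, and 2 rose and 3 fell in treated ECM against ECM (medians 0.14 and -0.26). These counts are near the background: in ECM 6.12% of the list rose and 4.08% fell, against 7.0% and 3.28% of all genes, and in treated ECM against ECM 4.08% rose and 6.12% fell, against 3.32% and 5.07%. The kinase subunits that fire origins went apart, with Cdc7 at 11.4 ± 1.37 CPM in control and 5.6 ± 0.678 CPM in ECM (-1.03 ± 0.17, adjusted p = 0.00122), and its activator Dbf4 at 1.42 ± 0.374 and 3.63 ± 1.21 CPM (1.35 ± 0.33, adjusted p = 0.0194). In treated ECM against ECM they had 1.06 ± 0.17, adjusted p = 0.00313 and -1.20 ± 0.33, adjusted p = 0.0403. The helicase cofactors Gins1 and Gins3 also had opposite signs in ECM (1.37 ± 0.39, adjusted p = 0.0384, and -0.93 ± 0.26, adjusted p = 0.0401), and Gins3 was higher in treated ECM than in ECM (1.01 ± 0.26, adjusted p = 0.0331). Timeless, a fork protection gene whose treated values come from 3 libraries, rose in ECM (0.69 ± 0.19, adjusted p = 0.0396). Its partner Tipin and the origin recognition gene Orc4 fell in treated ECM against ECM (-1.18 ± 0.26, adjusted p = 0.0143, and -0.83 ± 0.24, adjusted p = 0.0484).

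Of 72 other tested genes of mitosis and cytokinesis, 4 rose and 0 fell in ECM, with 12 at an unadjusted p below 0.05, and 1 rose and 3 fell in treated ECM against ECM (medians 0.30 and -0.33). These counts are at or below the background too: 5.56% of the list rose in ECM, against 7.0% of all genes, 16.7% were at an unadjusted p below 0.05, against 22.7%, and 4.17% fell in treated ECM, against 5.07%. Cenpa, the histone that marks centromeres, rose from 1.15 ± 0.101 to 5.07 ± 1.4 CPM (2.13 ± 0.27, adjusted p = 0.000142) and fell to 1.43 ± 0.245 CPM in treated ECM (-1.82 ± 0.27, adjusted p = 0.00182). Dlgap5, a spindle protein (2.11 ± 0.45, adjusted p = 0.00777), Cdca3, which promotes the destruction of a mitotic brake (2.0 ± 0.47, adjusted p = 0.0138), and Cdkn3, a phosphatase of cyclin-dependent kinases (1.41 ± 0.38, adjusted p = 0.0292), rose as well. The kinetochore genes Spc25 and Knl1 fell in treated ECM against ECM (-1.44 ± 0.41, adjusted p = 0.0463, and -1.54 ± 0.42, adjusted p = 0.0401), and Cdca7 rose (1.52 ± 0.34, adjusted p = 0.0153). Foxm1, Btg2, Gins3, Tipin, Orc4, Spc25, Knl1 and Cdca7 were named because they complete small counts, after their values were seen.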

How the data were processed

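RNA of the brains, stored in RNAlater, was isolated with Trizol, and a NEBNext Ultra kit was used for the libraries, per the labels' protocols. The deposited counts are whole reads per gene. For these the authors used Trimmomatic, FastQC, STAR, HTSeq and build mm10, per the submitters' processing notes. Their versions and the annotation: not given in the sources used here. In 2212 genes with long names the count values were displaced and were put back in their columns. None of the 39 is among them. In treated ECM 4 these values differed from the authors' deposited tables in 109 of 118 genes, so they were fitted with 11 libraries and other genes with 12, a departure from the planned fit of all 12. The authors' own tables also hold a deposited log2 fold change and deposited p-values from a tool that the sources used here do not name. They were used for Ccnb1, Cdc20 and Plk1 in ECM against control. In treated ECM against ECM they were used for Kif23, Ccna2, Ccnb1, Aurkb and Hmmr.

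After filterByExpr and TMM scaling, 1 edgeR quasi-likelihood fit with 3 group means gave the 3 comparisons (edgeR 4.0.16, limma 3.58.1, R 4.3.3), with Benjamini-Hochberg adjustment over 14621 genes. The script was tested on simulated data. Alternatives were DESeq2 1.42.0 and its size factors, no filter, only the 2 groups compared, a replicate block, each library left out, control 4, ECM 2 and ECM 3 left out together, and, added after the data were seen, a cerebellar marker score. The members and lists were chosen with earlier results of these data known, so lists have counts and medians and no test. Named are the 39 genes, and of each wider list up to 4 called genes with the smallest adjusted p. Values in every library are given for genes called in any comparison, and for Pcna and Ccnb1, chosen after their values were seen. Positions are from GENCODE M21 (mm10), in which 9 of the 39 overlap a protein-coding gene. The kit is not described as strand-specific. Promoters are from RefSeq (GRCm38.p6). Figures were drawn with matplotlib 3.10.9.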

Additional observations from a re-analysis of the deposited data

Results flagged for a closer look

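In each group of 4 libraries, the CPM of each of the 39 genes was examined for 1 library far from the other 3, by the gap to the nearest library as a share of the whole range, with Dixon's 95% critical value. Of 114 groups with a range, 4 passed, where chance gives about 1 in 20. Anln stood at 75.7 CPM in treated ECM 4, against 47.7 to 52.3 CPM in the other treated libraries, and without this library its call in treated ECM against ECM held. Aurka stood at 3.81 CPM in ECM 3, against 1.89 to 1.96 CPM in the other ECM libraries. In control 4, Ccna2 stood at 3.14 CPM against 1.00 to 1.24 CPM in the other controls, and Tpx2 at 5.4 CPM against 3.07 to 3.32 CPM. Control 4 and ECM 3 are among the 3 libraries with the highest share of mitochondrial reads, and its part in these values was not tested.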

How the results depend on the processing

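The 15 genes called higher in ECM than in control became 7 with only the 2 groups compared, 9 with the replicate block (8 of them among the 15), and 7 to 15 over omissions of 1 library. They were 15 with DESeq2 size factors, 18 with the DESeq2 test and 13 with no filter. The share of all genes called higher moved too, from 7.0% to 4.98% with 2 groups, 5.31% with the block, 5.46% to 7.61% over the omissions, 7.19% with the size factors, 8.33% with the DESeq2 test and 5.73% with no filter. The 4 genes called lower in treated ECM than in ECM became 1 to 7 over the omissions, 3 with the replicate block and 4 to 6 over the other settings, while 2.47% to 8.43% of all genes were called lower over the omissions, 2.51% with the block and 3.86% to 8.55% over the other settings. The 0 called higher in treated ECM than in control became 1 (Mki67) without control 4, ECM 2 and ECM 3 together, stayed 0 with the replicate block, and were 0 to 1 over the omissions. The called genes kept their direction in each of 360 values over these alternatives. Each alternative refits the same counts from which these genes were called, so this is not separate evidence. The cause of the changes in number was not tested. The omissions and the fits of 2 groups also had fewer libraries, and the part of that was not tested either. Deviations of same-numbered libraries from their group means had correlations of -0.66 to 0.31, of mixed sign. Single libraries that stand apart can set such values, so whether the numbers pair the samples cannot be told from them. Several genes had few reads, such as 1 to 32 per library for Tk1, which limits what their values can show.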
